A study of Mus musculus with 6 samples.

Results

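The genes described here are 10 genes with which fat cells take up fatty acids, pack them into lipid droplets and release them: Pparg, Lpl, Cd36, Fabp4, Dgat2, Plin1, Plin4, Cidec, Pnpla2 and Lipe. They were chosen by name, with earlier results of these data known, and each matched 1 of the 15667 genes in the table of normalized expression. All 10 passed the filter on low values, a mean of at least 1 count per 1000000 reads (CPM), as did 14306 genes in all. RNA-seq was done on ear skin at the tick bite site of female mice aged 7 to 8 weeks, after 10 nymphs per mouse had fed for 48 h. WT mice (Adipo+/+, n = 3) were compared with KO littermates (Adipo-/-, n = 3), which are homozygous for the null allele of B6;129-Adipoq tm1Chan mice and so lack adiponectin in every tissue from birth. Both groups were bitten, and unbitten skin was not analysed here. Each library came from a punch of whole ear, with skin, muscle and fat in unknown proportion.

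Adiponectin is a hormone made by fat cells, which in skin lie below the dermis. A fat cell draws fatty acids from the blood after Lpl has split the triglycerides of lipoproteins, moves them across its membrane and through its cytosol with Cd36 and Fabp4, and joins them to glycerol, with Dgat2 catalysing the last step. The triglyceride is stored in a single large droplet whose surface carries Plin1, and it is broken down again by Pnpla2 and then Lipe. Pparg is the nuclear receptor that drives this program during fat cell differentiation. Several of these genes are also used outside fat: Cd36 and Fabp4 in endothelial cells and macrophages, Lpl in muscle, and Dgat2 in sebaceous glands.

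The depth implied by the smallest values was 3403709 to 6591525 reads per library, so that 3 reads stood for 0.455 to 0.881 CPM. Adipoq, the targeted gene, was at 30.5, 63.7 and 49.6 CPM in WT replicates 1, 2 and 3 and in KO replicates 1, 2 and 3 at 0, 0.560 and 0 CPM, where the middle value stands for 2 reads. Its log2 fold change in limma was -6.17 (SE 0.41, adjusted p = 0.00322), and all labels matched it. Hair follicle genes set WT replicates 1 and 2 apart from the other libraries: the summed level of 12 markers was 8.47, 9.97 and 22855 CPM in WT skin, against 1827, 9148 and 927 CPM in KO skin.

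None of the lipid genes passed the adjustment for the number of genes tested. In limma 4 of the 10 were lower at an unadjusted p below 0.05 (Pparg, Lpl, Cd36 and Fabp4) and 0 were higher, against 1.82% of all tested genes lower and 1.06% higher. Because the 10 were chosen with earlier results of these data known, such shares are a description and cannot show enrichment. At an adjusted p below 0.05 the count was 0 of 10, with 0.014% of all tested genes called, and the smallest adjusted p of a lipid gene was 0.998. The log2 fold change was below 0 for 9 of the 10, as it was for 56.7% of all tested genes, and its median was -0.69 against -0.032 over all tested genes. Only Pparg had all KO values below all WT values, an ordering found in 4.89% of tested genes. The exact permutation p was 0.1 for Pparg, the smallest possible with 3 libraries on each side, and 0.2 to 1 for the rest. In tissue sampled in bulk, fewer fat cells and less RNA per fat cell cannot be told apart.

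**Figure D1:**
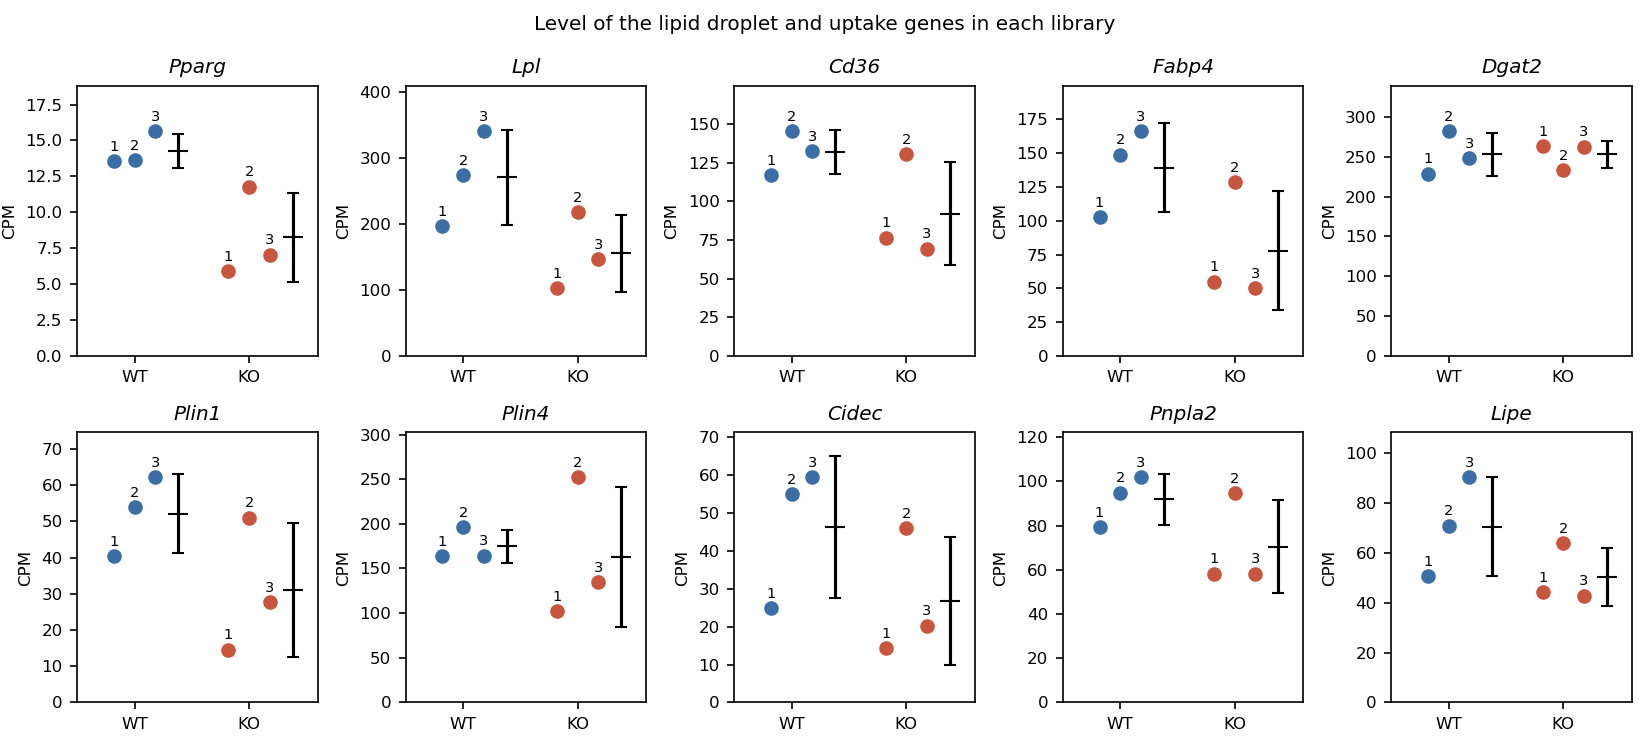
Level in CPM (y axis, linear, from 0) of each of the 10 lipid genes in the 3 WT (blue) and 3 KO (red) libraries, numbered by replicate, with the group mean and SD (black bars, n = 3). KO replicate 2 lay above the other KO libraries in 9 of the 10 panels, and the groups were separate only for Pparg.

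Pparg, the transcriptional regulator, was first examined, with promoter sequences of the lipid genes. The RefSeq table (GRCm38.p6) held windows of 250 bases before to 50 bases after a transcript start for 7 of the 10 genes, 11 windows in all, and none for Fabp4, Lpl and Dgat2. Windows were searched on both strands for the core hexamer of nuclear receptor elements, AGGTCA, which reads as TGACCT on the other strand. It was present in 3 of the 11 windows, 2 of the 3 of Pparg and the 1 of Cd36, and in 16.3% of 32851 windows of the same length. The Pparg windows and that of Cd36 are shown because these genes, which hold the hexamer, were among the 4 at an unadjusted p below 0.05. Fabp4 and Lpl, also among the 4, had no window, and a link between the hexamer and the levels was not tested. The third Pparg window lacks it. Each is printed 5′ to 3′ on the strand of the gene, and capitals mark the hexamer.
Pparg window 1, chr6:115360894-115361193, plus strand: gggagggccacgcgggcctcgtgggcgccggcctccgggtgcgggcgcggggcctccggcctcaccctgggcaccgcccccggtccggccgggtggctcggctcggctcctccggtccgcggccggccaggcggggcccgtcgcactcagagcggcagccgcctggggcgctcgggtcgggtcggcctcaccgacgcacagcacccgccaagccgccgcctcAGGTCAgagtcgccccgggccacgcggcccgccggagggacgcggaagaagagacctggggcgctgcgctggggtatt
Pparg window 2, chr6:115362099-115362398, plus strand: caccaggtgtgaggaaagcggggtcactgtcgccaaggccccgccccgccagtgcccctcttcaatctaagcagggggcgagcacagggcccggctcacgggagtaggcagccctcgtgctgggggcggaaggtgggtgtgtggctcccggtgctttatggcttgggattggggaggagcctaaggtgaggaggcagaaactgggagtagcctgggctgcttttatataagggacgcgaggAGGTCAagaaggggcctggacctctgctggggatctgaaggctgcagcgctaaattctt
Pparg window 3, chr6:115421816-115422115, plus strand: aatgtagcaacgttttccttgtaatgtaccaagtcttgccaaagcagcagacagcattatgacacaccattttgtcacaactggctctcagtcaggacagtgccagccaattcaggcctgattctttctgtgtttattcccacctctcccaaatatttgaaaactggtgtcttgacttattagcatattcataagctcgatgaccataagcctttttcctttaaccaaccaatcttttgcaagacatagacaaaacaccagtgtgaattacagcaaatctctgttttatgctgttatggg
Cd36 window, chr5:17835847-17836146, minus strand: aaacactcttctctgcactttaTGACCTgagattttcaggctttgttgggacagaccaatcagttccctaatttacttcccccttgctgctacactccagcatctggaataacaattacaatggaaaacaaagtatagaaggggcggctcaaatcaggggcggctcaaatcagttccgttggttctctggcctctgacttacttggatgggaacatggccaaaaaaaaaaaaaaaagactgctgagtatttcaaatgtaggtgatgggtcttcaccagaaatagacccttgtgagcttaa

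Counted from the start, the hexamer began at position -28 and -9 in the first and second Pparg windows and, as TGACCT, at -228 in that of Cd36. The direct repeat bound by Pparg with its partner Rxra (AGGTCANAGGTCA, in 0.0396% of all windows) and the C/EBP palindrome (TTGCGCAA, in 0.183%) were in 0 of the 11. The GC box GGGCGG was in 5 of the 11 windows (Cd36, Pparg windows 1 and 2, Pnpla2 and the first of Lipe) and in 35.7% of all. CCAAT was in 4 of the 11 (37.4% of all), and TATAAA was in 1 of the 11, Pparg window 2 (13.6% of all). The first Pparg window had the highest GC content of the 11, at 80.3%, and the third had the lowest, at 40.3%. These matches describe letters in a window and do not mark bound sites.

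Pparg (chromosome 6, 115360951 to 115490401, plus strand) was at 13.6, 13.6 and 15.7 CPM in WT skin, against 5.92, 11.8 and 7.05 CPM in KO skin. The KO mean was 57.7% of the WT mean (14.3 ± 1.196 and 8.25 ± 3.10 CPM, SD, n = 3 each), and the groups did not overlap. Its log2 fold change in limma was -0.81 (SE 0.27, 95% confidence interval -1.43 to -0.19, unadjusted p = 0.0171, adjusted p = 0.998). It was the lowest of the 10 genes, resting on 56, 67 and 95 estimated reads in WT and 39, 42 and 24 in KO. For KO replicate 2 the exact Poisson interval, which covers counting error only, was 8.48 to 15.9 CPM and so took in the values of all 3 WT libraries.

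Of the uptake genes, Lpl, Cd36 and Fabp4 were each lower in KO at an unadjusted p below 0.05, and for all 3 only KO replicate 2 reached the WT range. Lpl, the lipase of the capillary wall (chromosome 8, 68880555 to 68906932, plus strand), was at 197, 275 and 341 CPM in WT skin, against 102, 218 and 147 CPM in KO skin. WT replicate 1 lay below KO replicate 2, and KO replicate 1 was the lowest library. In limma the log2 fold change was -0.83 (SE 0.29, 95% confidence interval -1.50 to -0.16, unadjusted p = 0.0220, adjusted p = 0.998), with the KO mean at 57.5% of WT.

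Cd36, the fatty acid carrier of the cell membrane (chromosome 5, 17781690 to 17888959, minus strand), was at 117, 146 and 133 CPM in WT skin, against 76.6, 131 and 69.3 CPM in KO skin. KO replicates 1 and 3 stood well below all WT libraries, while KO replicate 2 was just below WT replicate 3. The log2 fold change was -0.57 (SE 0.23, 95% confidence interval -1.10 to -0.034, unadjusted p = 0.0397, adjusted p = 0.998). Since the study singled out Cd36 from these same libraries, its direction is not independent evidence.

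Fabp4, the fatty acid binding protein of the adipocyte cytosol (chromosome 3, 10204343 to 10208616, minus strand), was at 102, 149 and 166 CPM in WT skin, against 54.9, 128 and 49.9 CPM in KO skin. KO replicate 2 was above WT replicate 1, and the remaining KO libraries were at 39.5% and 35.9% of the WT mean. It had the fold change farthest below 0 of the 10, at -0.94 (SE 0.35, 95% confidence interval -1.76 to -0.12, unadjusted p = 0.0290, adjusted p = 0.998).

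Dgat2, the enzyme of the last step of triglyceride synthesis (chromosome 7, 99153663 to 99182713, minus strand), was the only lipid gene whose log2 fold change was not below 0. It was at 229, 282 and 248 CPM in WT skin, against 263, 233 and 262 CPM in KO skin, so that the groups were interleaved and KO replicate 2 was the lowest KO library. Its log2 fold change was 0.0020 (SE 0.11, unadjusted p = 0.986, adjusted p = 0.999), and its 95% confidence interval of -0.26 to 0.26 left out the estimates of Pparg, Lpl, Cd36, Fabp4, Plin1, Cidec, Pnpla2 and Lipe. The interval took in the estimate of Plin4, at -0.20. In turn, the intervals of Plin1, Plin4, Cidec, Pnpla2 and Lipe took in the estimate of Dgat2. The difference between the fold changes of these genes was not tested.

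The coat and fusion proteins of the droplet were next compared. Plin1, which covers the adipocyte droplet and guards it from lipases (chromosome 7, 79721164 to 79732776, minus strand), was at 40.4, 53.9 and 62.2 CPM in WT skin, against 14.6, 51.0 and 27.6 CPM in KO skin. KO replicate 1 was at 27.9% of the WT mean, the lowest share of any lipid gene in any library, and KO replicate 2 was at 97.8%. The limma estimate was a log2 fold change of -0.89 (SE 0.40, 95% confidence interval -1.83 to 0.041, unadjusted p = 0.0586, adjusted p = 0.998).

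Cidec, which lets small droplets pass their lipid into larger ones (chromosome 6, 113424634 to 113435760, minus strand), was at 24.9, 54.9 and 59.4 CPM in WT skin, against 14.3, 46.0 and 20.3 CPM in KO skin. WT replicate 1 was nearer to KO replicates 1 and 3 than to the other WT libraries. Its log2 fold change had the widest interval of the 10 (-0.86, SE 0.46, 95% confidence interval -1.93 to 0.22, unadjusted p = 0.103, adjusted p = 0.998).

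Plin4, a coat protein of nascent droplets (chromosome 17, 56100589 to 56109782, minus strand), was at 164, 197 and 164 CPM in WT skin, against 102, 252 and 135 CPM in KO skin. It was the only lipid gene with a KO library above all WT libraries, replicate 2 at 144% of the WT mean, while KO replicates 1 and 3 were below all WT libraries. Its log2 fold change was -0.20 (SE 0.29, 95% confidence interval -0.88 to 0.48, unadjusted p = 0.509, adjusted p = 0.998), and it was 0.079 without KO replicate 1. In the deposited positions the end of Plin4 overlaps that of Hdgfl2 on the other strand.

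For lipolysis, Pnpla2, the lipase that removes the first fatty acid from a triglyceride (chromosome 7, 141455188 to 141460743, plus strand), was at 79.2, 94.8 and 101.7 CPM in WT skin, against 58.3, 94.7 and 58.2 CPM in KO skin. KO replicates 1 and 3 were alike and below all WT libraries, and KO replicate 2 equalled WT replicate 2 to within 0.1 CPM. In limma the log2 fold change was -0.41 (SE 0.21, 95% confidence interval -0.89 to 0.062, unadjusted p = 0.0794, adjusted p = 0.998).

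Lipe, hormone-sensitive lipase (chromosome 7, 25379527 to 25395987, minus strand), was at 50.6, 70.8 and 90.2 CPM in WT skin, against 44.1, 63.9 and 42.9 CPM in KO skin. The WT libraries spread more widely than the KO libraries, and KO replicate 2 was again the one inside the WT range. The log2 fold change was -0.47 (SE 0.24, 95% confidence interval -1.02 to 0.081, unadjusted p = 0.0849, adjusted p = 0.998). Lipe lies within 4732471J01Rik, which is on the other strand and at a mean of 0.648 CPM.

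The lipid genes shared a pattern over the libraries. WT replicate 1 was the lowest WT library for all 10 genes, and WT replicate 3 was the highest for 7 of them. KO replicate 2 was the highest KO library for 9, and KO replicates 1 and 3 were each below all WT libraries for 9 genes, while KO replicate 2 was so for 1. The shares of all tested genes with these orders were not worked out, so the counts are a description only. The median of the 10 genes, as a percent of each gene's WT mean, was 81.8%, 105% and 115% in the WT libraries and 49.8%, 95.01% and 53.6% in the KO libraries.

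The count of 4 genes at an unadjusted p below 0.05 therefore depended on which library was left out. Without KO replicate 2 it was 9, all but Dgat2, against 2.66% of all tested genes, and the fold changes of the 9 ran from -1.37 for Fabp4 to -0.57 for Plin4. The count was 0 when KO replicate 1 or KO replicate 3 was left out, against 201 and 302 of the 14306 tested genes lower at that p. It was 1 without WT replicate 2 or WT replicate 3, against 147 and 390 genes, and 6 without WT replicate 1, against 354. No lipid gene passed the adjustment in any of these fits, and the median fold change of the 10 stayed between -0.96 (without KO replicate 2) and -0.45 (without KO replicate 1).

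**Figure D2:**
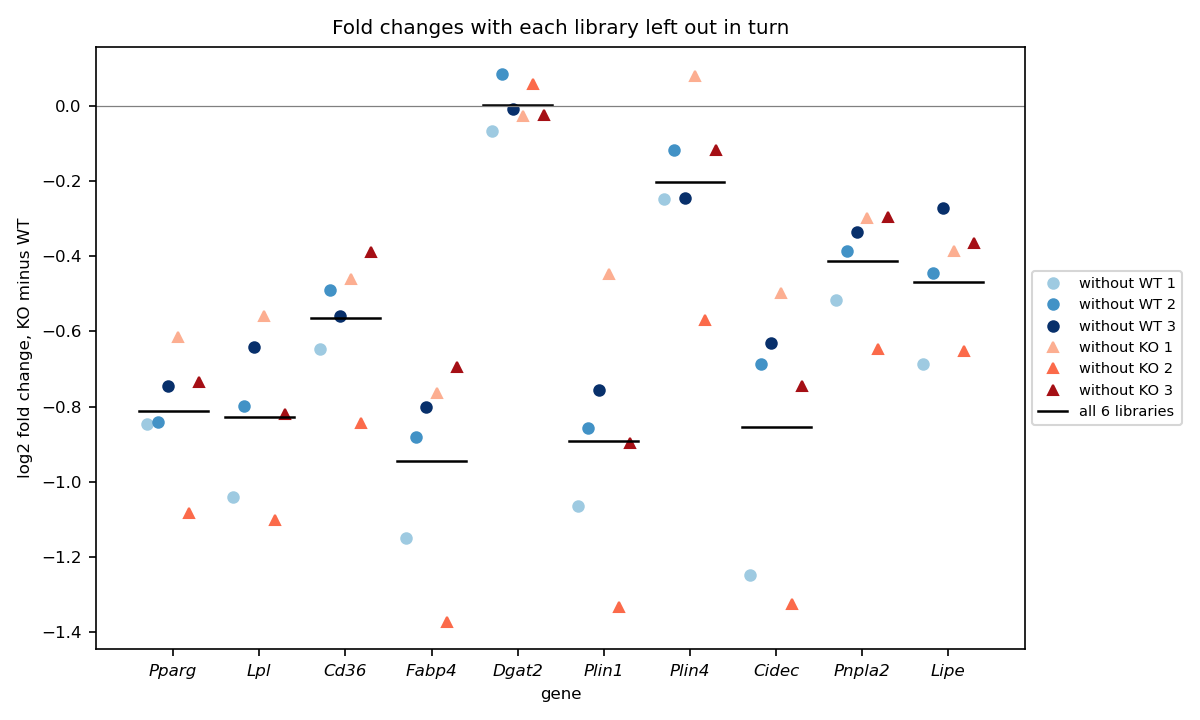
Limma log2 fold change, KO minus WT (y axis), of each lipid gene (x axis) with 1 library left out (circles, WT; triangles, KO) and with all 6 libraries (black lines). Leaving out KO replicate 2 gave the most negative value for 8 of the genes, and only Dgat2 and Plin4 had points above 0.

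Across the 6 libraries the genes varied together, apart from Dgat2. The correlation of each gene's log2(CPM + 0.5) with the mean of the other 9 was 0.98 for Pnpla2, 0.97 for Fabp4 and Cidec, 0.96 for Lpl and Plin1, 0.94 for Cd36, 0.93 for Pparg, 0.91 for Lipe and 0.78 for Plin4. For Dgat2 it was -0.18. These values describe 6 points that share library, depth and tissue makeup.

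The order of the genes by level was next set out per length, as CPM divided by the length of the longest coding transcript in kb. In WT skin Fabp4 was highest, at 155 ± 36.9 CPM per kb (SD, n = 3 here and below), followed by Dgat2 at 112 ± 11.9, whose range overlapped that of Fabp4. Lpl was at 65.8 ± 17.6 CPM per kb, separate from its neighbours on both sides. Cd36 (38.8 ± 4.20), Pnpla2 (35.0 ± 4.40), Plin4 (30.4 ± 3.25), Cidec (27.0 ± 10.9), Lipe (19.0 ± 5.33) and Plin1 (18.5 ± 3.89) followed, and each overlapped the next in range. Pparg was lowest, at 6.72 ± 0.563 CPM per kb, below the range of Plin1. In KO skin Dgat2, at 112 ± 7.50 CPM per kb, had a higher mean than Fabp4, at 86.8 ± 49.0, whose range took in that of Dgat2.

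To place these genes in their pathway, 37 other genes of lipid uptake, storage and release were examined, also chosen with earlier results of these data known. All 37 were tested, and 3 were lower in KO at an unadjusted p below 0.05, 0 were higher and 0 passed the adjustment, against 1.82% lower and 1.06% higher over all tested genes. The log2 fold change was below 0 for 28 of them, against 56.7% of all tested genes, with a median of -0.10. The enzymes of triglyceride synthesis that feed Dgat2 held 2 of the 3. Agpat2, which adds the second fatty acid to the glycerol backbone, was at 24.2, 33.4 and 24.6 CPM in WT skin, against 14.0, 20.2 and 14.7 CPM in KO skin (log2 fold change -0.74, unadjusted p = 0.0077). Gpd1, which makes the glycerol phosphate for that backbone, was at 45.5, 72.2 and 77.0 CPM in WT skin, against 15.3, 42.9 and 31.1 CPM in KO skin (-1.19, unadjusted p = 0.0120). In both, every KO library was lower than every WT library, KO replicate 2 included. The same order held for G0s2, a gene of lipolysis (unadjusted p = 0.0513 in limma), making 3 of the 37, against 4.89% of all tested genes. Rxra and Lmf1 had every KO library above every WT library.

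In lipolysis the fold change was below 0 for all 8 genes, against 56.7% of all tested genes, with a median of -0.30. Pde3b, through which insulin restrains lipolysis, was at 25.7, 33.8 and 27.0 CPM in WT skin, against 15.5, 26.1 and 19.98 CPM in KO skin (-0.50, unadjusted p = 0.0493), with overlapping groups, and its unadjusted p was 0.164 without WT replicate 2. Mgll, which acts after Lipe and had the highest level in this role, had a log2 fold change of -0.038.

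The other roles held no gene at an unadjusted p below 0.05. The median log2 fold change was -0.18 over 6 transcriptional regulators, whose most abundant gene, Cebpa, was at 392 ± 23.7 CPM in WT skin, against 420 ± 17.6 CPM in KO skin. It was -0.046 over 10 genes of uptake and activation, where Fabp5, a fatty acid binding protein of keratinocytes, was at 378 ± 167 and 420 ± 169 CPM. It was -0.063 over 8 droplet genes, where Plin2, the coat protein found in most cell types, was at 83.5 ± 16.2 and 69.3 ± 9.58 CPM (SD, n = 3 each). Gpam, the first enzyme of glycerolipid synthesis, was at 159 ± 17.7 and 157 ± 14.6 CPM.

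**Figure D3:**
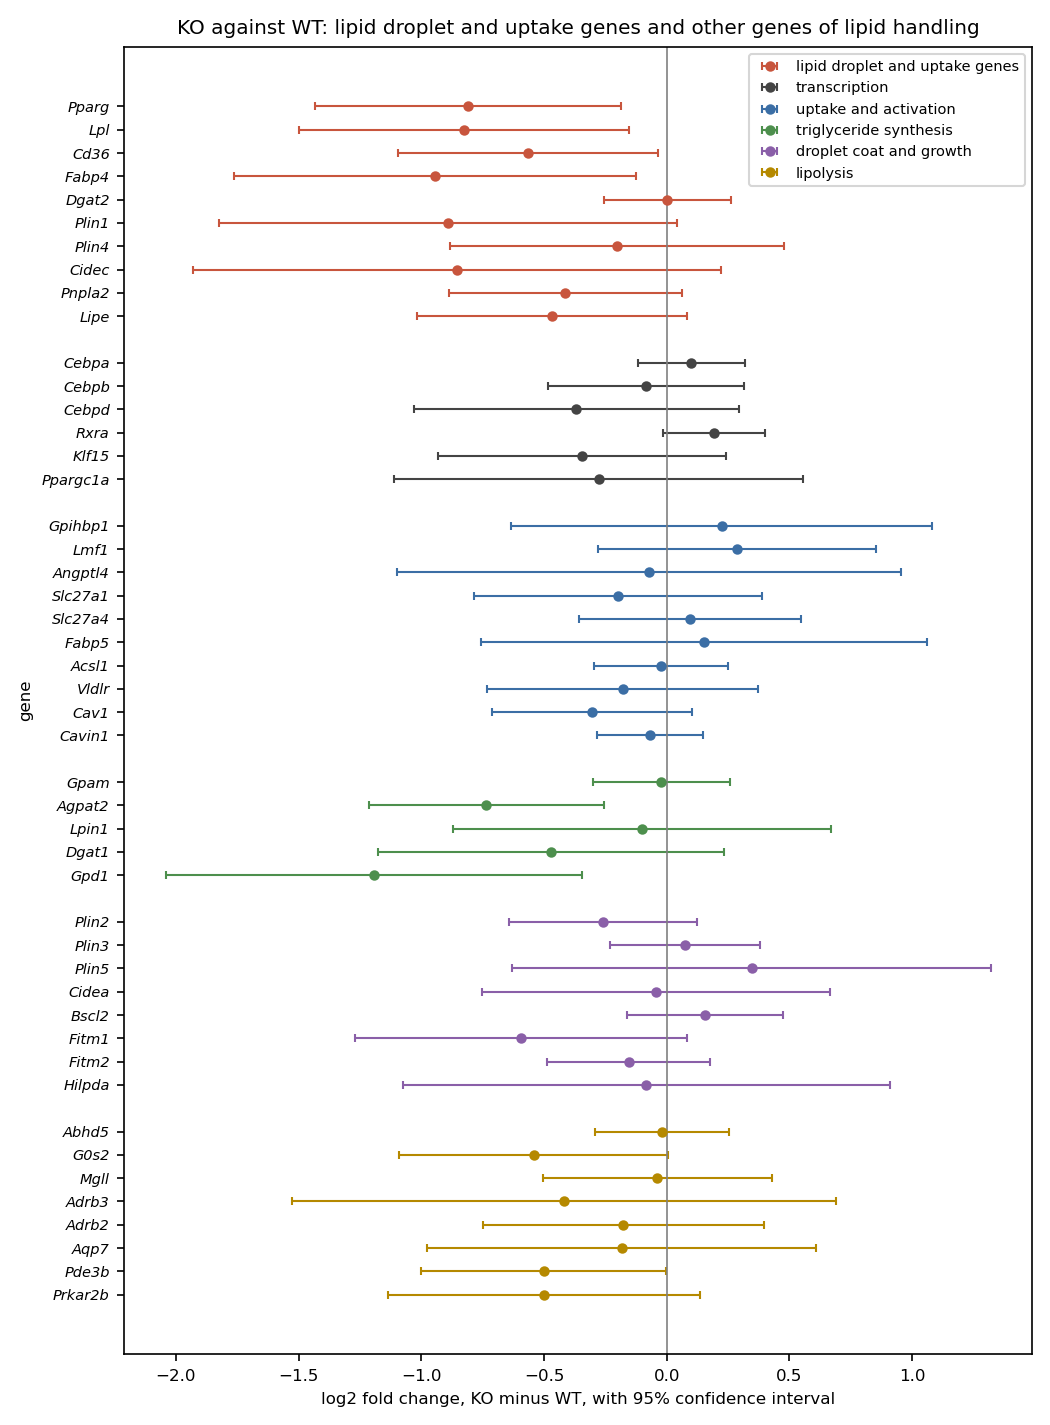
Limma log2 fold change, KO minus WT (x axis), with its 95% confidence interval, of the 10 lipid genes and the 37 other genes of lipid handling, coloured by role. All points lay left of 0 for triglyceride synthesis and lipolysis among the 37, while 56.7% of all tested genes were below 0. Intervals clear of 0 were those of Pparg, Lpl, Cd36, Fabp4, Agpat2, Gpd1 and Pde3b.

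Markers of fat cells that are not among the 10 showed a like pattern. These markers and all other marker lists were chosen with earlier results of these data known, so their counts are a description only. The summed level of 10 adipocyte markers was 412, 661 and 652 CPM in WT skin, against 231, 599 and 295 CPM in KO skin, so that the same library, KO replicate 2, was inside the WT range. All 10 markers had a log2 fold change below 0, with a median of -0.71, and 4 were lower at an unadjusted p below 0.05. Over all tested genes 56.7% were below 0 and 1.82% lower at that p. None of the 10 markers was at 0 in any library. Their most abundant gene was Car3, at 246, 365 and 348 CPM in WT skin, against 140, 292 and 177 CPM in KO skin (-0.70, unadjusted p = 0.0323).

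**Figure D4:**
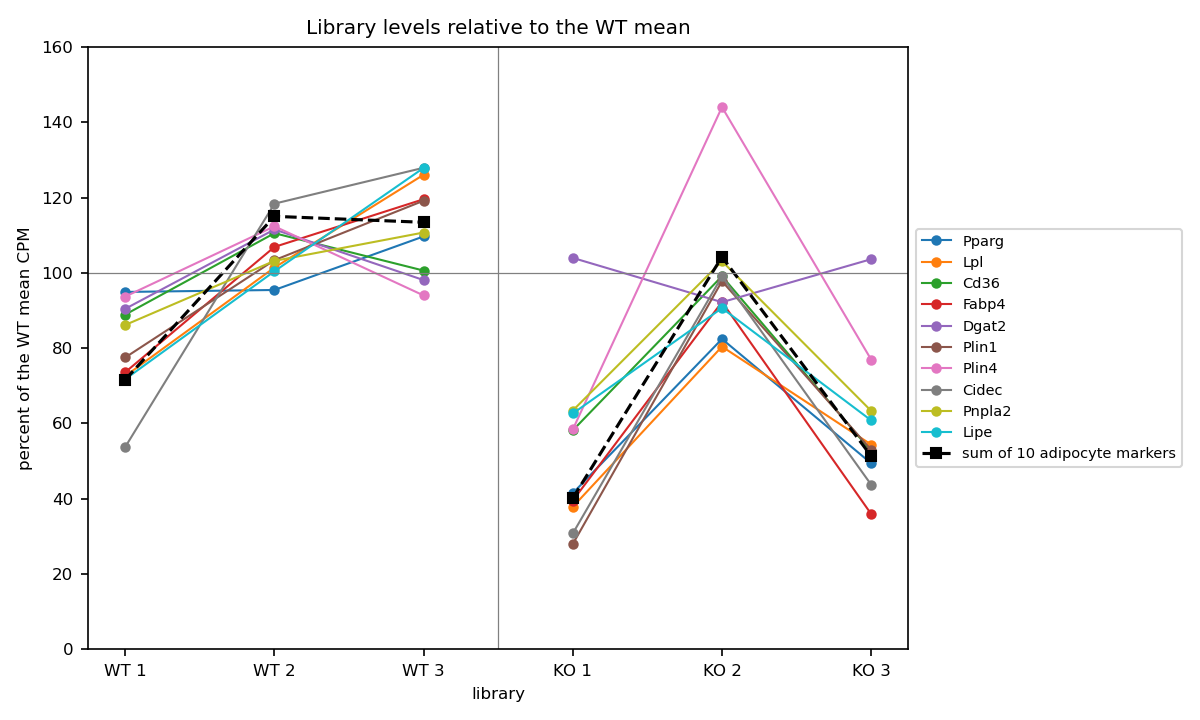
Level of each lipid gene and of the sum of 10 adipocyte markers (black squares) in each library, as a percent of its WT mean (y axis, linear, from 0). Lines join points of 1 gene within a genotype only to make them easier to trace. The marker sum and 9 of the genes were lower in KO replicates 1 and 3 than in KO replicate 2, where the genes stood at 80.4% to 103% apart from Plin4 at 144%, while Dgat2 stayed between 90.4% and 112%.

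The lipid genes were next set against the adipocyte markers. For 8 of the 10 the mean log2 ratio to the marker sum differed between KO and WT by -0.24 (Fabp4) to 0.29 (Pnpla2), and for Plin4 and Dgat2 by 0.50 and 0.71. The ratio of each gene to the marker sum overlapped between WT and KO for 9 of the 10 (exact permutation p = 0.1 to 0.6 over all 10, adjusted p = 0.6 for each). The exception was Plin4, with ratios of 0.398, 0.297 and 0.252 in WT and 0.443, 0.420 and 0.456 in KO. In alternatives chosen after seeing the data, the Plin4 ratios also overlapped when Car3 was left out of the sum or when the mean log level of the markers was used. All 10 markers themselves had log2 fold changes below 0, so a fit with their score as a covariate cannot separate genotype from that score. With this covariate in limma, 0 of the 10 lipid genes reached an unadjusted p below 0.05, against 245 of the 14306 tested genes lower. The median log2 fold change of the 10 was -0.15. Pparg was then at -0.44 (SE 0.24, unadjusted p = 0.108), Lpl at -0.32 (SE 0.15, unadjusted p = 0.0686), Fabp4 at -0.32 (SE 0.17, unadjusted p = 0.0974) and Cd36 at -0.20 (SE 0.16, unadjusted p = 0.252).

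Markers of other cells that use these genes were also summed. For 10 sebocyte markers the sum was 721 to 861 CPM in WT skin, against 615 to 766 CPM in KO skin, led by Krt79, with 10 of 10 fold changes below 0, a median of -0.21 and 0 at an unadjusted p below 0.05. For 10 endothelial markers it was 159 to 177 CPM in WT skin, against 109 to 158 CPM in KO skin, led by Pecam1, with 9 below 0, a median of -0.16 and 2 lower at an unadjusted p below 0.05. For 10 macrophage markers, led by Mrc1, the sums were 479 to 951 CPM in WT skin, against 454 to 902 CPM in KO skin, with 8 below 0, a median of -0.14 and 0 at an unadjusted p below 0.05. Over all tested genes 56.7% had a fold change below 0 and 1.82% were lower at that p. No marker of these lists was at 0 in any library, and their part in the levels of Cd36, Fabp4 and Dgat2 was not tested.

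Markers of ear muscle had fold changes below 0 as well. The sum of 10 skeletal muscle markers was 11001, 11833 and 14797 CPM in WT skin, against 6506, 8591 and 14455 CPM in KO skin, led by Ttn. Fold changes were below 0 for 10 of 10 (56.7% of all tested genes), with a median of -0.51. At an unadjusted p below 0.05, 1 was lower (1.82% of all tested genes). Unlike the lipid genes, the muscle markers were highest among KO libraries in replicate 3. With the muscle score as a covariate 0 lipid genes reached an unadjusted p below 0.05, against 409 of the 14306 tested genes lower. The median fold change of the lipid genes was then -0.63. Adjusted for the hair follicle score, the count was 8, against 4.15% of all tested genes, and the median was -0.81.

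The remaining lists are given by their sums. Fibroblast markers, led by Col3a1, summed to 4895 to 5972 CPM in WT skin, against 4899 to 7351 CPM in KO skin, with a median fold change of -0.086. Keratinocyte markers, led by Krt10, summed to 25104 to 36154 CPM in WT skin, against 30695 to 44531 CPM in KO skin, with 9 of 9 analysed fold changes above 0 and a median of 0.23. Neutrophil markers, led by S100a9, summed to 71.9 to 646 CPM in WT skin, against 134 to 241 CPM in KO skin, with a median of -0.40. The 12 hair follicle markers, led by Tchh, had a median fold change of 2.75 on the log2 scale, while their mean sum was higher in WT skin (7625 CPM) than in KO skin (3967 CPM), WT replicate 3 alone being at 22855 CPM. In these 4 lists 1 fibroblast marker was higher at an unadjusted p below 0.05, against 1.06% of all tested genes. Of all tested genes, 56.7% had a fold change below 0. Of the 12 hair follicle markers, 10 were at 0 in at least 1 library.

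Genes whose levels ran most like the mean of the 10 lipid genes were then listed, among 9840 others with a mean of at least 10 CPM. Over the 6 libraries the correlation on the log2(CPM + 0.5) scale was 0.978 to 0.994 for the 10 closest, which were Dock4, Dhx36, Car3, Trf, Psd3, Klhl7, Bbx, Gnaq, Ninj1 and Zfp780b. Dock4 was at 14.8, 20.7 and 20.6 CPM in WT skin, against 10.01, 19.3 and 11.8 CPM in KO skin, and Trf, which encodes the iron carrier transferrin, was at 126, 160 and 159 CPM in WT skin, against 88.8, 157 and 101 CPM in KO skin. Both had KO replicate 2 within the WT range, as had 8 of the lipid genes. A correlation above 0.9 was found for 160 genes, and with 6 points this describes the shared library pattern and no more.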

How the data were processed

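RNA-seq of bitten ear skin from 3 WT and 3 KO mice was analysed, with groups taken from the labels. The authors trimmed reads, aligned them to mm10 with STAR (2.7.3a), estimated transcript counts with the expectation-maximization step of Partek Flow, and added these up by gene. Deposited values are CPM, to which the authors added an offset of 0.0001, removed here. Counting by strand was not given in the sources used here, and reads of overlapping genes may be shared. Gene positions (GRCm38) follow the deposited table.

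Depth was estimated from the CPM of 1 read: 91.7% to 92.8% of values under 20 reads lay within 0.1 of a whole read, so reads are estimates. They were used only for Poisson intervals and for limma voom as an alternative. Intervals from reads cover counting error only, since reads after PCR are not independent molecules.

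KO was compared with WT by limma (3.58.1, R 4.3.3, eBayes with trend) on log2(CPM + 0.5), two-sided, without covariates, for genes averaging at least 1 CPM. Benjamini-Hochberg adjustment was over all 14306 genes tested, and 1361 were not tested. Fold changes on this scale understate those of low genes. The step was tested on simulated data. Exact permutation tests used scipy (1.17.1). Lengths are from GENCODE M21.

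The 10 genes, the 37 pathway genes and the 9 marker lists were chosen with earlier results of these data known. All 10 are named, with pathway genes at an unadjusted p below 0.05, the most abundant gene of each role and list, and the 10 genes most alike. G0s2, Rxra and Lmf1 are named for the order of their libraries. Alternatives were other pseudocounts, filters and scalings, no trend, limma voom, a replicate block, 3 marker scores as covariates, and leaving out each library. Ratios without Car3 and with mean log markers were chosen after seeing the data.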

Additional observations from a re-analysis of the deposited data

How the results depend on the processing

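Across 18 alternatives no lipid gene passed an adjusted p of 0.05 in limma, the smallest lying between 0.415 and 1.0. The count at an unadjusted p below 0.05 was 4 with either pseudocount (0.1 or 2), without a filter or with one at 5 CPM, and under both rescalings, and 5 with limma voom. It was 2 without the trend (324 of all 14306 tested genes lower) and 8 with the hair follicle covariate (594 lower). With the skeletal muscle (409 lower) or the adipocyte marker score (245 lower) as covariate the count was 0. Without a single library the count ranged from 0 to 9. The median fold change was -0.15 with the adipocyte marker covariate, and -0.96 to -0.45 without a single library. The pathway count of 3 was 5 with the skeletal muscle covariate and 2 to 5 without a single library, 5 being without KO replicate 2.

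The fold change of Plin4 was 0.28 with the adipocyte marker covariate and ranged from -0.57 to 0.079 without a single library, the last value being without KO replicate 1. That of Dgat2 was -0.034 with that covariate and ranged from -0.068 to 0.083 without a single library, falling below 0 when replicate 1 or 3 of either genotype was left out. The cause was not tested.

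The replicate numbers showed no clear pairing: the correlation of deviations from the group means was 0.38, -0.31 and -0.22 for libraries with numbers 1, 2 and 3. For libraries with differing numbers it ran from -0.38 to 0.45. These values cannot show whether the mice were paired. With a replicate block 7 lipid genes were lower at an unadjusted p below 0.05, as were 414 of the 14306 tested genes (260 without the block), and 0 lipid genes passed the adjustment.

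Over all tested genes, 260 were lower and 152 higher in KO at an unadjusted p below 0.05, against 215 and 209 after median-of-ratios rescaling and 193 and 232 after quantile normalization. For Pparg, at 24 to 95 estimated reads per library, depth limits the precision.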
